A study of Mus musculus with 16 samples.

Results

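The genes described here encode 10 members of the BCL2 family, the proteins that decide whether the outer membrane of mitochondria is opened during apoptosis. They were chosen by name from the deposited expression table, 10 of 49585 genes, and all 10 had reads in at least 1 library. *Bcl2*, *Bcl2l1*, *Bcl2l2* and *Mcl1* are the 4 protective members, *Bax* and *Bak1* the 2 effectors, and *Bid*, *Bad*, *Bcl2l11* and *Bbc3* the 4 BH3-only members. The effectors and BH3-only members are grouped below as the 6 death-promoting members.

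Effector proteins form pores in the outer mitochondrial membrane, through which cytochrome c leaves the mitochondrion and caspases are activated. Protective proteins hold effectors and BH3-only proteins in a hydrophobic groove and so keep the membrane closed, while BH3-only proteins carry damage signals, either by occupying that groove or by activating the effectors. Hair cells (HCs) of the mammalian cochlea are not replaced when they die, and this pathway is a known route of HC loss after noise, ototoxic drugs and aging.

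The series holds 16 RNA-seq libraries of inner and outer hair cells (IHCs and OHCs) drawn with a pipette, cell by cell, from cochleae of CBA mice (CBA/J in the study's methods) of 9 and 26 months. Each sample held about 1000 cells pooled from 6 to 18 mice of both sexes, the cells being told apart by shape, and no treatment was given. There were 4 libraries in each of the 4 groups, which are called by their labels, in this order throughout: 9m IHC, then 26m IHC, then 9m OHC, then 26m OHC. The authors deposited RPKM, that is reads scaled by gene length and library size, a level that can be compared between genes.

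In every group library 1 matched library 2, and library 3 matched library 4, to about sampling noise (mean chi-square per gene 0.983 to 1.08 in 8 such pairs, against 2.70 to 3.44 in the other 16 pairs). The study's methods give 2 biological replicates per cell type and age, each with 2 technical repeats. Their account of cell collection speaks of 3 biological replicates. The mean of such a pair was used as 1 sample, so that n = 2 per group. All SDs and p-values measure only the spread between these samples, which may be technical. Mapped reads, recovered from the steps between RPKM values, were 19666190 to 31243721 per library, with medians of 29898097, 24301358, 20414642 and 20461536 in the 4 groups in the order above.

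Markers of OHCs went against the labels. The prestin gene *Slc26a5*, the motor protein of OHCs, was at 1.07, 816, 0.172 and 1.85 RPKM in the 4 groups in that order. The summed level of 8 OHC markers, none of them at 0 in any group, was 46.2 to 49.9, 15035 to 15240, 107 to 111 and 1201 to 1215 RPKM over the libraries of these groups, so that it was highest in libraries labelled 26m IHC. The 5 IHC markers summed to 3681 to 3698, 275 to 283, 1852 to 1878 and 2128 to 2162 RPKM. *Calb2* made up most of this sum, at 3150, 252, 1609 and 2014 RPKM. *Otof*, *Slc17a8*, *Slc7a14* and *Tbx2* were lower in 26m OHC than in 9m OHC, although the sum was higher. In 26m OHC against 9m OHC, log2 differences were 2.84 for *Slc26a5*, 3.57 for *Ocm*, -0.85 for *Otof* and -1.10 for *Slc17a8*. The paper reports the reverse directions for these genes in aging OHCs. Genes above 0.1 RPKM numbered 14373 to 14432, 14399 to 14445, 12554 to 12576 and 13792 to 13837 per library in the 4 groups. The paper counts the fewest expressed genes in aged IHCs. Whether the labels of 26m IHC and 9m OHC were exchanged was not tested. Every comparison of the design contains libraries labelled 26m IHC, 9m OHC or both, and the cell types and ages below are those of the labels only. Words such as rose, fell and with age refer to groups as labelled. In such pools a lower level cannot be told apart between fewer cells of a type and less RNA per cell.

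The 10 proteins share a BH3 region, a short helix through which family members bind each other. The stretch of coding sequence that encodes its core is shown to let the members be compared, since it is the feature that joins protective and death-promoting members in 1 family. It was found in GENCODE transcripts (GRCm38) by a pattern of residues, a leucine or methionine, then any 2 residues, then alanine, isoleucine, methionine or valine, then glycine, alanine or serine, then aspartate, and each member had 1 match. The pattern is loose, with a match in 11.02% of 21584 protein-coding genes. Capitals mark the codon of the leucine (methionine in *Bcl2l2*) and that of the aspartate.
Bcl2: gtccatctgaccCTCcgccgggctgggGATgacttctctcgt
Bcl2l1: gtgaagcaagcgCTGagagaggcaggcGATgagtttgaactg
Bcl2l2: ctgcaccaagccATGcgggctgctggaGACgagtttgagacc
Mcl1: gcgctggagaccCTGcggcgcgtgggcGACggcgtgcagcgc
Bax: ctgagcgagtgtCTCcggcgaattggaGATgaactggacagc
Bak1: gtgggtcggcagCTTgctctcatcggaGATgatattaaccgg
Bid: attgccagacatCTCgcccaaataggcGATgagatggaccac
Bad: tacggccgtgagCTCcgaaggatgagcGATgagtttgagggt
Bcl2l11: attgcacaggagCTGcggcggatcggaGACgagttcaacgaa
Bbc3: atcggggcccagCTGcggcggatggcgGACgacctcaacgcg

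These stretches lie at chr1:106712572-106712613 (minus strand) in *Bcl2*, chr2:152829694-152829735 (minus) in *Bcl2l1*, chr14:54884505-54884546 (plus) in *Bcl2l2* and chr3:95659424-95659465 (plus) in *Mcl1*. In the effectors they lie at chr7:45465994-45466035 (minus) in *Bax* and chr17:27022528-27022569 (minus) in *Bak1*. In the BH3-only genes they lie at chr6:120897286-120897327 (minus) in *Bid*, chr19:6950780-6950821 (plus) in *Bad*, chr2:128147138-128147179 (plus) in *Bcl2l11* and chr7:16313761-16313802 (plus) in *Bbc3*. Each falls within 1 exon of the transcript used. Of the 42 bases, *Bcl2l11* and *Bbc3* shared 28, *Bcl2l1* and *Bcl2l2* shared 26, *Bak1* and *Bid* shared 24, and *Bcl2l2* and *Bak1* shared 14, the fewest of any pair of members.

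**Figure D1:**
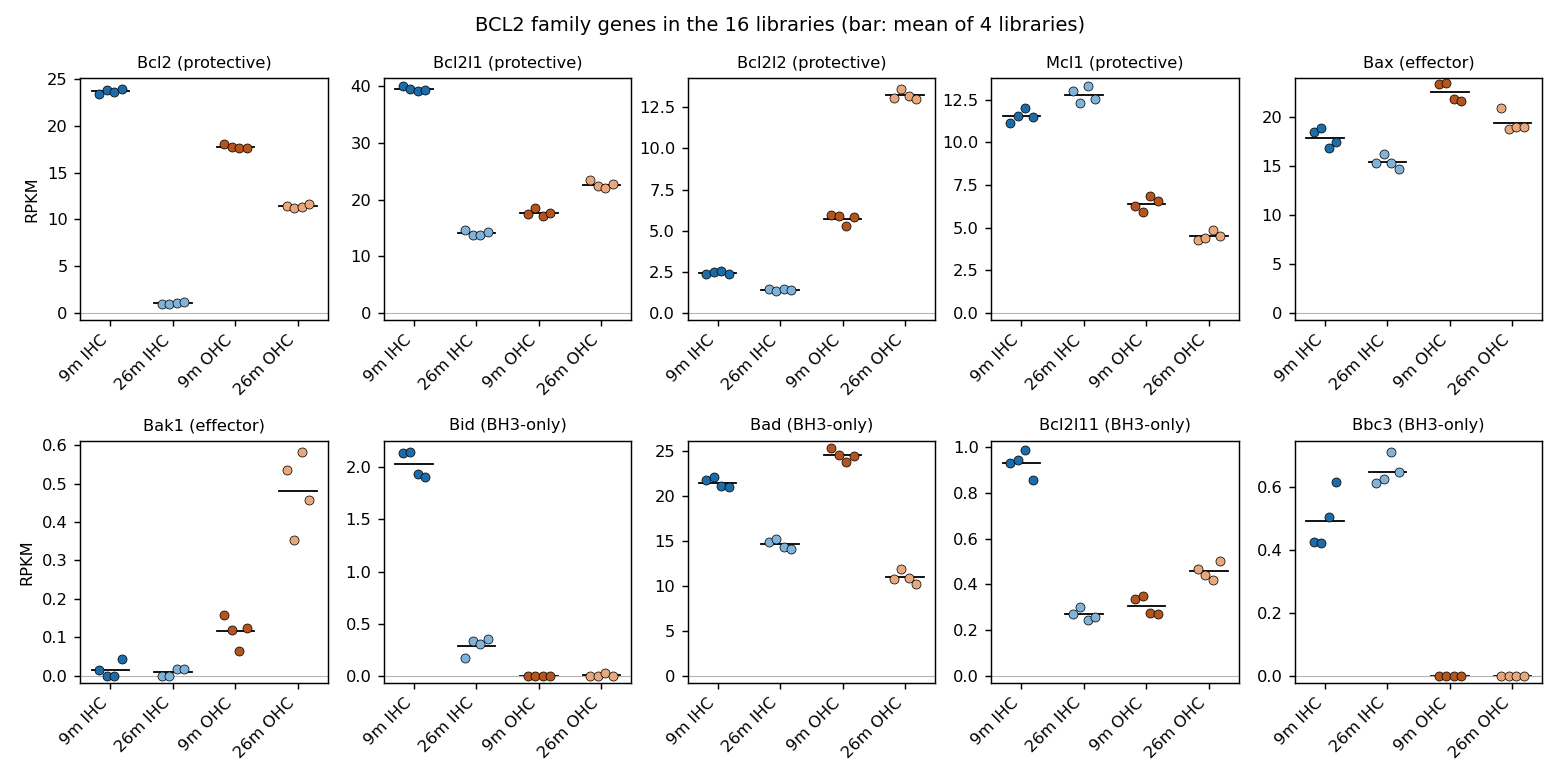
RPKM of each BCL2 family gene (y axis, linear, a scale of its own for each gene) in the 4 libraries of each labelled group (points) with their mean (bar). *Bcl2* lay at 0.934 to 1.17 RPKM in 26m IHC and above 11 RPKM in the other groups, while *Bid* and *Bbc3* were at or near 0 in the libraries labelled OHC.

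Among the protective members, *Bcl2*, the founder of the family, showed the widest range among groups. *Bcl2* (ENSMUSG00000057329, chromosome 1 from 106538178 to 106714274) was at 23.4, 23.8, 23.6 and 23.9 RPKM in the 4 libraries of 9m IHC and at 0.934, 0.972, 1.02 and 1.17 RPKM in those of 26m IHC. It was at 18.0, 17.7, 17.6 and 17.6 RPKM in 9m OHC and at 11.4, 11.2, 11.3 and 11.6 RPKM in 26m OHC. The libraries of no 2 groups overlapped, and 26m IHC stood far below the rest, with 909 reads in its 4 libraries together against 25988 in 9m IHC. The group means were 23.7 ± 0.114, 1.02 ± 0.0980, 17.7 ± 0.166 and 11.4 ± 0.106 RPKM (SD, n = 2) in the order of groups above. An antisense gene, *D630008O14Rik*, overlaps *Bcl2*, and 5.96% of the 75-base windows of *Bcl2* are shared with it. Reads of genes on opposite strands cannot be told apart here, since the strand is not given in the sources used here.

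*Bcl2l1*, which encodes BCL-XL and is the protective member known for keeping mature neurons alive, had the highest mean over the 4 groups of the protective members. *Bcl2l1* (ENSMUSG00000007659, chromosome 2 from 152780668 to 152831728) was at 40.1, 39.6, 39.1 and 39.3 RPKM in 9m IHC and at 14.6, 13.8, 13.7 and 14.2 RPKM in 26m IHC. In libraries labelled OHC it was at 17.4, 18.4, 17.2 and 17.6 RPKM at 9 months and at 23.4, 22.5, 22.0 and 22.8 RPKM at 26 months. All 4 groups stood apart, with 9m IHC highest and 26m IHC lowest, and 26m OHC above 9m OHC.

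*Bcl2l2*, which encodes BCL-W, was highest in libraries labelled OHC. *Bcl2l2* (ENSMUSG00000089682, chromosome 14 from 54883377 to 54888234) was at 2.38, 2.48, 2.53 and 2.35 RPKM in 9m IHC and at 1.47, 1.32, 1.43 and 1.42 RPKM in 26m IHC. It was at 5.92, 5.88, 5.31 and 5.83 RPKM in 9m OHC and at 13.1, 13.6, 13.2 and 13.0 RPKM in 26m OHC. The groups did not overlap, and the highest mean, 13.2 ± 0.188 RPKM (SD, n = 2) in 26m OHC, was 9.39-fold that of 26m IHC, 1.41 ± 0.0218 RPKM. Of its windows, 12.7% are shared with *Gm20521*, an annotated gene on the same strand, so a part of its reads could not be assigned for certain.

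*Mcl1*, a protective member whose protein is made and degraded quickly, went in another order. *Mcl1* (ENSMUSG00000038612, chromosome 3 from 95658788 to 95663176) was at 11.2, 11.5, 12.01 and 11.5 RPKM in 9m IHC and at 13.0, 12.3, 13.3 and 12.5 RPKM in 26m IHC. It was at 6.25, 5.91, 6.87 and 6.54 RPKM in 9m OHC and at 4.30, 4.397, 4.87 and 4.50 RPKM in 26m OHC. Of the protective members, *Mcl1* alone had its highest level in 26m IHC, and no libraries of different groups overlapped.

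The effectors *Bax* and *Bak1*, either of which can open the membrane in most cells, differed widely in level. *Bax* (ENSMUSG00000003873, chromosome 7 from 45461697 to 45466898) was at 18.4, 18.8, 16.8 and 17.4 RPKM in 9m IHC and at 15.3, 16.2, 15.3 and 14.7 RPKM in 26m IHC. It was at 23.3, 23.5, 21.8 and 21.6 RPKM in 9m OHC and at 20.9, 18.8, 19.0 and 18.9 RPKM in 26m OHC. The highest and lowest group means, 22.6 ± 1.16 in 9m OHC and 15.4 ± 0.516 RPKM in 26m IHC (SD, n = 2), differed 1.47-fold, the narrowest range of the 10 members, and libraries of 9m IHC and 26m OHC overlapped. *Bax* shares 11.9% of its windows with *Gm45808*.

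*Bak1* was close to the limit of detection in 3 of the groups. *Bak1* (ENSMUSG00000057789, chromosome 17 from 27019810 to 27029009) was at 0.537, 0.352, 0.582 and 0.456 RPKM in 26m OHC, from 18 to 28 reads a library, and at 0.159, 0.119, 0.0634 and 0.125 RPKM in 9m OHC, from 3 to 8 reads. In 9m IHC it had 4 reads in 2 of the 4 libraries, and in 26m IHC 2 reads, also in 2 of the 4. The 26m OHC libraries thus all stood above those of the other groups, while libraries of 9m IHC and 26m IHC overlapped. The ratio of 26m OHC to 26m IHC in reads per mapped read was 56.3 (95% exact counting interval 15.2 to 472), and that of 9m OHC to 9m IHC 8.45 (2.89 to 33.6). Such intervals cover counting error only. *Bak1* shares 16.1% of its windows with *Ggnbp1* on the opposite strand, which was not removed from these counts.

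Of the BH3-only members, *Bad* and *Bcl2l11* were found in all libraries, while *Bid* and *Bbc3* had from 0 to 2 reads in each library labelled OHC. *Bad*, a BH3-only gene whose product is held inactive by survival signals, was abundant throughout. *Bad* (ENSMUSG00000024959, chromosome 19 from 6941861 to 6951898) was at 21.7, 22.1, 21.04 and 20.9 RPKM in 9m IHC and at 14.9, 15.2, 14.3 and 14.1 RPKM in 26m IHC. It was at 25.3, 24.5, 23.8 and 24.4 RPKM in 9m OHC and at 10.8, 11.9, 10.8 and 10.2 RPKM in 26m OHC. Both groups labelled 26 months lay below both labelled 9 months, with no overlap between groups. That order rests on the labels of 26m IHC and 9m OHC. Whole reads were not recovered for *Bad*, and up to 20.5% of its exonic bases overlap *Gpr137* on the opposite strand.

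*Bcl2l11*, which encodes BIM, a strong activator of the effectors, was below 1 RPKM in all libraries. *Bcl2l11* (ENSMUSG00000027381, chromosome 2 from 128126038 to 128162547) was at 0.932, 0.945, 0.989 and 0.857 RPKM in 9m IHC and at 0.270, 0.301, 0.242 and 0.257 RPKM in 26m IHC. It was at 0.334, 0.349, 0.272 and 0.269 RPKM in 9m OHC and at 0.465, 0.440, 0.417 and 0.504 RPKM in 26m OHC. Libraries of 9m IHC were highest, those of 26m OHC came next, and 9m OHC and 26m IHC overlapped.

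*Bid*, which caspase-8 cuts to link death receptors to mitochondria, was found mainly in libraries labelled IHC. *Bid* (ENSMUSG00000004446, chromosome 6 from 120891930 to 120916853) was at 2.14, 2.15, 1.93 and 1.91 RPKM in 9m IHC and at 0.167, 0.330, 0.304 and 0.351 RPKM in 26m IHC. It had no read in the 4 libraries of 9m OHC, which allows up to 0.0104 RPKM (3 reads over the group), and 2 reads, both in 1 library, in 26m OHC. The level in 9m IHC was at least 196-fold higher than in 9m OHC, and the ratio of 26m IHC to 26m OHC was 41.8 (95% exact counting interval 11.3 to 349.6). *Bid* shares 23.4% of its windows with *Bcl2l13* on the opposite strand.

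*Bbc3*, which encodes PUMA and is a target of p53, followed the same division between the labels. *Bbc3* (ENSMUSG00000002083, chromosome 7 from 16308393 to 16318205) was at 0.427, 0.422, 0.506 and 0.618 RPKM in 9m IHC and at 0.613, 0.625, 0.711 and 0.648 RPKM in 26m IHC, and the libraries of these groups overlapped. No read of *Bbc3* was found in the 8 libraries labelled OHC, which allows up to 0.0173 RPKM in 9m OHC and 0.0172 RPKM in 26m OHC. It was at least 28.5-fold higher in 9m IHC than in 9m OHC and at least 37.8-fold higher in 26m IHC than in 26m OHC. None of its windows is shared with another gene.

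The promoters of *Bid* and *Bbc3* are shown because these were the members with a group in which no library had a read. They are RefSeq sequences (GRCm38.p6), 300 bases each across the start of transcription, at chr6:120916775-120917074 (minus strand) for *Bid* and chr7:16309333-16309632 (plus strand) for the first of 3 starts of *Bbc3*. Capitals mark GC boxes, GGGCGG on either strand.
Bid: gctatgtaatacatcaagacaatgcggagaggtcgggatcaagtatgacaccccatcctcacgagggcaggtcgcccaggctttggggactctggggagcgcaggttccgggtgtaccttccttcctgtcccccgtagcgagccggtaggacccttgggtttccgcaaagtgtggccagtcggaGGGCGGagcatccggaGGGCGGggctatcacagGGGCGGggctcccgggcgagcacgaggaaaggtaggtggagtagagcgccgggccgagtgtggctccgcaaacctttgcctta
Bbc3: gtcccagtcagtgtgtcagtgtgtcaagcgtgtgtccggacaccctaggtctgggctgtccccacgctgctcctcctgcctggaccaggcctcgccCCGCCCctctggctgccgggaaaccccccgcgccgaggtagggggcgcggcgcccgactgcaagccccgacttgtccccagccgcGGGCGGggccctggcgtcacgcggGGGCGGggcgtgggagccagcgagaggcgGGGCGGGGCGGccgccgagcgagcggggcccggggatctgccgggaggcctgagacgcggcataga

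The window of *Bid* holds 3 GC boxes at 63.3% G and C, and that of *Bbc3* holds 5 at 76% G and C, against a median of 52.7% G and C over 32851 promoters of the same length, of which 35.7% hold a GC box. The CCAAT box (CCAAT, in 37.4% of all promoters), the TATA box (TATAAA, in 13.6%) and the E box (CACGTG, in 7.15%) were not matched on either strand in these windows. The window of the third start of *Bbc3*, which is not shown, holds 1 CCAAT box, 1 E box and 7 GC boxes.

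In the comparison of ages within libraries labelled IHC, 4 of the 9 members tested were called, *Bcl2*, *Bcl2l1*, *Bid* and *Bcl2l11*, and all 4 were lower in 26m IHC than in 9m IHC. The test was limma on log2(RPKM + 0.1), a scale that understates the change of low genes, and a call needed a Benjamini-Hochberg adjusted p, over all genes tested, not above 0.1 and a log2 fold change, up or down, not under 1. Over all 15711 genes tested, 32.7% were called, 14.1% higher and 18.6% lower. *Bak1* was too low in both groups to be tested, having a mean under 0.1 RPKM.

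*Bcl2* fell by 4.41 on the log2 scale (SE 0.0665, limma with Benjamini-Hochberg adjusted p = 4.42e-07), from a level 23.2-fold higher in 9m IHC, a change larger in size than those of 98.5% of the genes tested. *Bcl2l1* fell by 1.48 (SE 0.0259, limma adjusted p = 6.59e-07) and *Bcl2l11* by 1.49 (SE 0.0918, limma adjusted p = 4.81e-05). *Bid* fell by 2.46 (SE 0.125, limma adjusted p = 2.33e-05), a ratio of 7.05. The fall of *Bcl2l11* was no longer called with a pseudocount of 1 RPKM, at -0.61. The genes that fell thus included protective and BH3-only members alike.

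The other 5 tested members stayed under the fold threshold. The log2 differences of 26m IHC from 9m IHC were -0.75 for *Bcl2l2*, 0.15 for *Mcl1*, -0.22 for *Bax*, -0.55 for *Bad* and 0.35 for *Bbc3* (SE 0.136, limma adjusted p = 0.0611). The median over the tested members was -0.75, against -0.09 over all genes tested. The libraries of the groups did not overlap for 8 of the 10 members, beside 81.0% of all genes tested. Markers of several cell types also differed between these groups. Of 10 eosinophil and neutrophil markers, 9 reached 1 RPKM in 26m IHC and 0 in 9m IHC, with sums of 433 to 448 and 0.0387 to 0.0925 RPKM and *Epx*, *Ear1*, *S100a9*, *Elane*, *Mpo* and *Camp* at 0 in 9m IHC. The 7 red cell markers, none at 0, summed to 5922 to 6151 and 402 to 407 RPKM, and the 12 macrophage markers to 52.0 to 55.3 and 2.95 to 3.44 RPKM, with *Csf1r*, *Aif1* and *Cx3cr1* at 0 in 9m IHC. Other sums were lower in 26m IHC, that of the 8 neuron markers at 29.8 to 30.4 against 191 to 197 RPKM, with *Prph* at 0 in 9m IHC, and that of the 7 supporting cell markers, none at 0, at 542 to 555 against 1578 to 1603 RPKM. Of the supporting cell markers 4 were called lower and 2 higher. The latter were *Fgfr3*, at 41.6 against 2.04 RPKM, and *Otog*, at 34.2 against 15.2 RPKM. The part of these lists in the differences, and that of the OHC markers, was not tested.

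**Figure D2:**
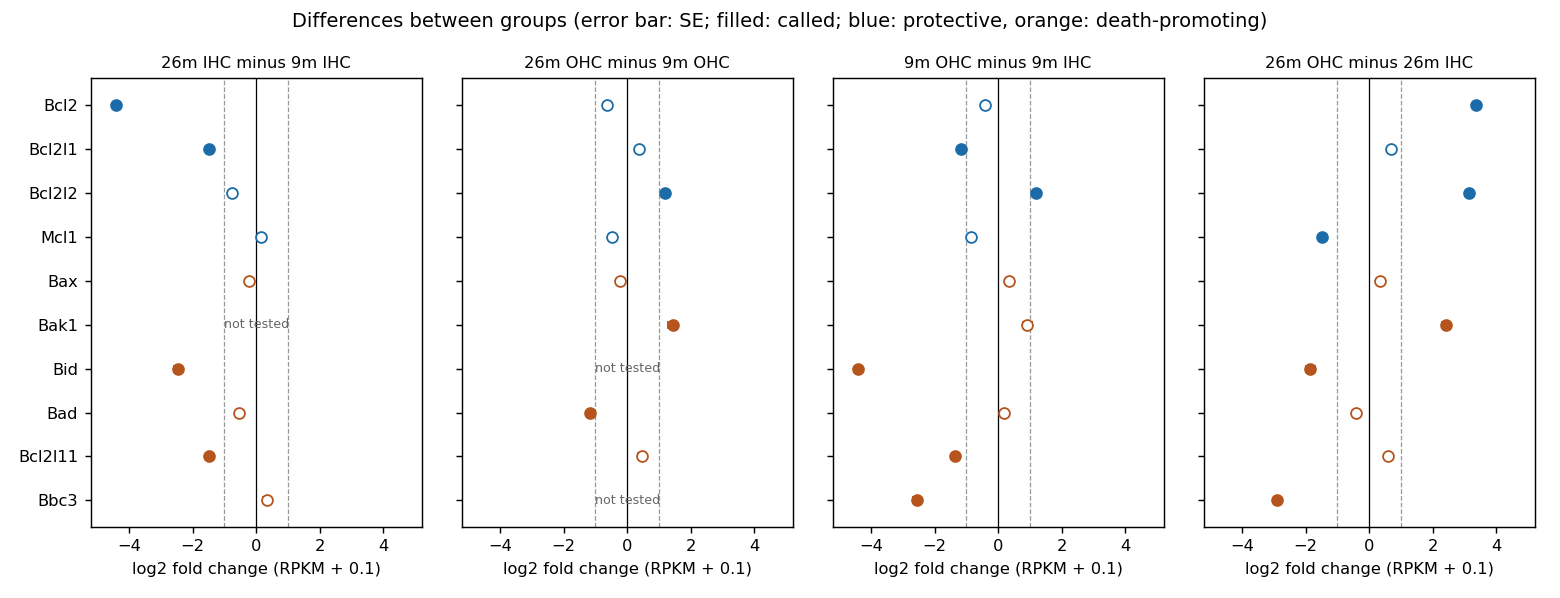
Log2 fold change of each member (x axis, on log2(RPKM + 0.1)) in the 4 comparisons of groups, with its SE, which is often smaller than the marker. Filled markers passed both thresholds (dashed lines at a log2 fold change of 1 in either direction), blue marks protective and orange death-promoting members, and *Bcl2* lies at -4.41 in the first panel and 3.36 in the fourth.

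In the comparison of ages within libraries labelled OHC, 3 of the 8 members tested were called. *Bcl2l2* and *Bak1* were higher and *Bad* was lower in 26m OHC than in 9m OHC. Over all 14843 genes tested, 49.6% were called, 35.6% higher and 14.0% lower. *Bid* and *Bbc3*, at or near 0 in both groups, were not tested.

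*Bcl2l2* rose by 1.19 on the log2 scale (SE 0.0410, limma with Benjamini-Hochberg adjusted p = 1.41e-05), to a level 2.31-fold higher. *Bad* fell by 1.16 (SE 0.0474, limma adjusted p = 2.37e-05), the ratio of 9m OHC to 26m OHC being 2.25. *Bak1* rose by 1.43 (SE 0.135, limma adjusted p = 0.000442), a ratio of 4.14 that rests on 95 reads against 23. The call of *Bcl2l2* was lost under median ratio scaling (0.86) and quantile normalization (0.83). That of *Bak1* was lost with a pseudocount of 1 RPKM (0.41), and its direction turned under quantile normalization (-0.10).

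The other tested members moved by less than the fold threshold. The log2 differences of 26m OHC from 9m OHC were -0.64 for *Bcl2*, 0.36 for *Bcl2l1*, -0.49 for *Mcl1*, -0.22 for *Bax* and 0.46 for *Bcl2l11*, the last of which was -0.94 under quantile normalization. The median over the tested members was 0.07, against 0.45 over all genes tested. Libraries of the groups did not overlap for 8 of 10 members, beside 88.6% of all genes tested. The 12 macrophage markers summed to 0.158 to 0.424 RPKM in 9m OHC, where 9 were at 0 (*Cd68*, *Ctss*, *Tyrobp*, *Fcer1g*, *C1qa*, *C1qb*, *C1qc*, *Csf1r* and *Ptprc*), and to 1013 to 1045 RPKM in 26m OHC, where 10 reached 1 RPKM. The 8 neuron markers summed to 104 to 107 and 727 to 742 RPKM, with *Gap43* at 0 in both groups and *Prph* at 0 in 9m OHC. The 7 markers of cochlear fibrocytes and stria summed to 40.8 to 42.5 and 403 to 413 RPKM. Of these, 4 were called higher and 2 lower, with *Kcne1* at 0 in 26m OHC. The 7 supporting cell markers, none at 0, summed to 547 to 570 and 948 to 982 RPKM, with 2 called, each higher. The part of these markers in the differences was not tested.

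Between the labelled cell types at 9 months, 5 of the 10 members were called. *Bcl2l2* was higher, and *Bcl2l1*, *Bid*, *Bcl2l11* and *Bbc3* were lower, in 9m OHC than in 9m IHC. Over all 15335 genes tested, 65.8% were called, 17.3% higher and 48.5% lower. Thus 3 of the 4 BH3-only genes were lower, and *Bad*, at a log2 difference of 0.19, stayed under the fold threshold. Beside these, the red cell markers summed to 402 to 407 RPKM in 9m IHC and 11.97 to 14.3 RPKM in 9m OHC, where *Slc4a1* was at 0, the supporting cell markers to 1578 to 1603 and 547 to 570 RPKM, and the neuron markers to 191 to 197 and 104 to 107 RPKM. The neuron list was mixed, with *Nefl* at 109 and 18.4 RPKM. Of its 7 genes tested, 2 were called higher (*Tubb3* and *Thy1*) and 2 lower (*Nefl* and *Gap43*). The part of these lists in the differences was not tested.

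*Bcl2l2* was higher by 1.202 on the log2 scale (SE 0.0464, limma with Benjamini-Hochberg adjusted p = 9.22e-06), a ratio of 2.35. *Bcl2l1* differed by -1.16 (SE 0.0284, limma adjusted p = 2.11e-06) and *Bcl2l11* by -1.35 (SE 0.106, limma adjusted p = 0.000137). *Bid* and *Bbc3* passed the test (limma adjusted p = 1.09e-06 and 2.76e-05), with the lower bounds on their folds given above. These calls depended on the scaling. The median over all genes tested was -0.93, and it was -0.27 under median ratio scaling and -0.09 under quantile normalization, and of all genes called 26.3%, 43.5% and 48.9% were higher in 9m OHC under these 3 scalings.

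*Bcl2l1* (-1.16) and *Bcl2l11* (-1.35) were not far from that median of -0.93. Their calls were lost under median ratio scaling (-0.45 and -0.76) and quantile normalization (-0.55 and -0.63), and *Bax*, at 0.33 as deposited, was called higher under both (1.04 and 1.012). *Bcl2*, at -0.41, turned to 0.29 and 0.26, and *Mcl1*, at -0.84, to 0.01 under quantile normalization. *Bak1*, at 0.92, was called under these and 4 other alternatives. With a pseudocount of 1 RPKM the calls of *Bcl2l2* (0.97), *Bcl2l11* (-0.56) and *Bbc3* (-0.58) were lost, leaving 2 members called. The median over the 10 members was -0.63, and libraries did not overlap for 10 of 10, beside 92.5% of all genes tested. Mitochondrially encoded genes held 1.09% to 1.14% of reads in 9m IHC and 9.94% to 10.2% in 9m OHC, and rescaling without them added no change of call but that of *Bak1* (1.001).

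At 26 months, 6 of the 10 members were called between the labelled cell types. *Bcl2*, *Bcl2l2* and *Bak1* were higher, and *Mcl1*, *Bid* and *Bbc3* were lower, in 26m OHC than in 26m IHC. Over all 16043 genes tested, 63.5% were called, 29.0% higher and 34.4% lower. Of the protective members, 2 were higher and 1 lower, and of the BH3-only members 2 were lower.

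*Bcl2* was higher by 3.36 on the log2 scale (SE 0.0718, limma with Benjamini-Hochberg adjusted p = 1.45e-06), a ratio of 11.1, and *Bcl2l2* by 3.14 (SE 0.0400, limma adjusted p = 4.83e-07). *Bak1* was higher by 2.42 (SE 0.128, limma adjusted p = 2.95e-05). *Mcl1* differed by -1.48 (SE 0.0480, limma adjusted p = 4.98e-06), the ratio of 26m IHC to 26m OHC being 2.83. *Bid* and *Bbc3* passed the test (limma adjusted p = 0.000129 and 4.24e-06). The calls of *Bak1*, *Bid* and *Bbc3*, all under 1 RPKM, were lost with a pseudocount of 1 RPKM (0.55, -0.35 and -0.72), while those of *Bcl2*, *Bcl2l2* and *Mcl1* were not.

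The other log2 differences of 26m OHC from 26m IHC were 0.68 for *Bcl2l1*, which was called under quantile normalization (1.05), 0.33 for *Bax*, -0.42 for *Bad* and 0.60 for *Bcl2l11*. The median over the members was 0.47, against -0.20 over all genes tested, and libraries did not overlap for 10 of 10, beside 91.8% of all genes tested. In 26m IHC and 26m OHC, macrophage markers summed to 52.0 to 55.3 and 1013 to 1045 RPKM, eosinophil and neutrophil markers to 433 to 448 and 0.618 to 1.35, red cell markers to 5922 to 6151 and 17.4 to 19.9, and neuron markers to 29.8 to 30.4 and 727 to 742. Among those at 0 in 26m OHC were *Epx*, *Ear1*, *Elane*, *Mpo*, *Ltf* and *Camp*, *Hbb-bt*, *Alas2* and *Slc4a1*, and *Gap43*. The part of these markers in the differences was not tested.

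In the test of the interaction of age and cell type, 6 of the 10 members were called, *Bcl2*, *Bcl2l1*, *Bcl2l2*, *Bak1*, *Bid* and *Bcl2l11*, each with a more positive value in OHC than in IHC. The value of *Bid* restates its fall in IHC, since with 0 and 2 reads in the groups labelled OHC it could not fall there and was not tested there. Over all 17056 genes in this test, 56.5% were called, 38.4% more positive and 18.1% more negative. The values were 3.77 for *Bcl2* (SE 0.0786, limma with Benjamini-Hochberg adjusted p = 2.41e-08), 1.84 for *Bcl2l1*, 1.94 for *Bcl2l2* and 1.95 for *Bcl2l11*. For *Bak1* it was 1.50, which rests on few reads, 4 and 2 in the groups labelled IHC, and for *Bid* 2.56.

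By the labels, the age differences in IHC and OHC were -1.48 and 0.36 for *Bcl2l1*, -0.75 and 1.19 for *Bcl2l2*, and -1.49 and 0.46 for *Bcl2l11*. Each pair was of opposite sign. The interaction of *Bax* was 7.27e-05 (SE 0.0782), its age differences being -0.22 in both. *Mcl1* (-0.64), *Bad* (-0.61) and *Bbc3* (-0.35) also stayed under the fold threshold. *Mcl1* and *Bad* were called under median ratio scaling (-1.24 and -1.22), and *Mcl1* also under quantile normalization (-1.28). *Bak1* and *Bcl2l11* were no longer called with a pseudocount of 1 RPKM (0.42 and 0.76) or under quantile normalization (0.04 and 0.69). Of all genes called, 68.0% were more positive as deposited, 52.3% under median ratio scaling and 48.7% under quantile normalization.

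Leaving out 26m IHC, which had the highest OHC marker sum, and 9m OHC, which had the lower such sum under the OHC label, left 1 comparison, which was added after the data had been seen. The label of 26m OHC was not free of doubt either, with *Slc26a5* at 1.85 RPKM there. Against 9m IHC, 6 of the 8 OHC markers were called higher, while *Slc26a5* (0.73) and *Chrna9* (0.07) were not called. In 26m OHC against 9m IHC 6 of 10 members were called, *Bcl2l2* (2.39) and *Bak1* (2.35) higher and *Bcl2* (-1.05), *Mcl1* (-1.34), *Bid* and *Bbc3* lower, beside 61.9% of all 15884 genes tested, 26.3% higher and 35.6% lower. This comparison mixes age and cell type, and its libraries did not overlap for 9 of 10 members, beside 92.1% of all genes tested. In 26m IHC against 9m OHC, which mixes them too, 4 of 10 members were called, *Bid* and *Bbc3* higher and *Bcl2* (-3.99) and *Bcl2l2* (-1.95) lower, beside 67.6% of all 15505 genes tested, 46.2% higher and 21.4% lower. Libraries of these groups also did not overlap for 9 of 10 members, beside 92.3%. *Bcl2* was 2.08-fold higher in 9m IHC, a smaller ratio than the 23.2-fold seen against 26m IHC.

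With all comparisons of groups in hand, the levels of each member could be put in order. For *Bcl2*, *Bcl2l1*, *Bcl2l2*, *Mcl1* and *Bad*, no neighbours in the order overlapped in their libraries. *Bax* ran from 9m OHC through 26m OHC and 9m IHC to 26m IHC, with libraries of 26m OHC and 9m IHC overlapping (log2 difference 0.12, SE 0.0519, limma with Benjamini-Hochberg adjusted p = 0.0801) and the difference under the fold threshold. *Bcl2l11* did not differ beyond the spread between 9m OHC and 26m IHC (26m IHC minus 9m OHC -0.14, SE 0.121, limma with Benjamini-Hochberg adjusted p = 0.316). *Bbc3* in the 2 groups labelled IHC, *Bak1* in the same 2 groups, and *Bid* and *Bbc3* in the 2 groups labelled OHC were the other neighbours whose libraries overlapped.

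The summed level of the protective members was 77.2 ± 0.0451, 29.3 ± 0.136, 47.5 ± 0.355 and 51.8 ± 0.228 RPKM (SD, n = 2) in 9m IHC, 26m IHC, and then 9m OHC and 26m OHC. That of the death-promoting members was 42.8 ± 1.77, 31.2 ± 1.03, 47.5 ± 1.84 and 31.3 ± 1.15 RPKM. The protective sum thus spanned a wider range, and it was highest in 9m IHC and lowest in 26m IHC. These sums are given as a description with no test, and they add transcripts of proteins that differ in potency and turnover.

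The ratio of the protective to the death-promoting sum was 1.76, 1.74, 1.87 and 1.84 in the libraries of 9m IHC and 0.964, 0.870, 0.955 and 0.977 in those of 26m IHC. It was 0.969, 0.989, 1.02 and 1.02 in 9m OHC and 1.60, 1.64, 1.67 and 1.72 in 26m OHC. The libraries of 9m IHC and 26m OHC thus all lay above 1.5, and those of 26m IHC and 9m OHC all near 1, with 26m IHC overlapping 9m OHC. The means were 1.81 ± 0.0735, 0.941 ± 0.0354, 1.001 ± 0.0313 and 1.66 ± 0.0535 (SD, n = 2). The order depended on what was summed. Against *Bax* and *Bak1* alone the ratio was 4.32, 1.91, 2.10 and 2.61, and without *Bcl2l1* and *Bax*, the most abundant members of their classes by the mean over the 4 groups although *Bad* was above *Bax* in both groups at 9 months and *Bcl2* slightly above *Bcl2l1* in 9m OHC, it was 1.51, 0.964, 1.199 and 2.46.

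**Figure D3:**
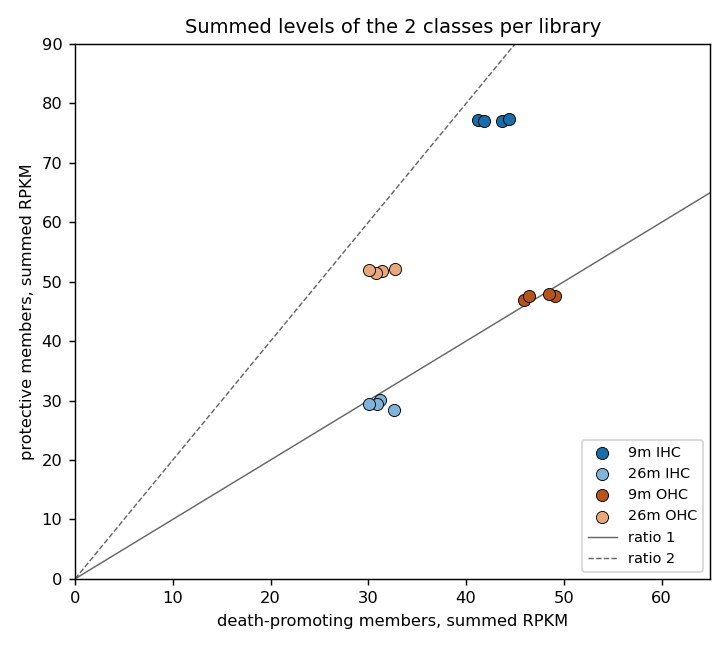
Summed RPKM of the 4 protective members (y axis) against that of the 6 death-promoting members (x axis) in each of the 16 libraries, coloured by labelled group, with lines at ratios of 1 and 2. Libraries of 26m IHC and 9m OHC lie along the line at 1, and those of 9m IHC and 26m OHC between the lines.

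The make-up of the family differed among groups. *Bcl2* held 19.7% of the summed RPKM of the 10 members in 9m IHC, 1.69% in 26m IHC, 18.7% in 9m OHC and 13.7% in 26m OHC. *Mcl1* held 9.63%, 21.1%, 6.73% and 5.44% in that order, so that within the protective class it stood at 43.6% in 26m IHC. *Bcl2l2* held 2.03%, 2.33%, 6.04% and 15.9%. Among the death-promoting members, *Bax* and *Bad* together made up nearly the whole class, with *Bax* at 62.1% of it in 26m OHC and *Bad* at 51.6% in 9m OHC, where *Bak1*, *Bid*, *Bcl2l11* and *Bbc3* each held under 1%.

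**Figure D4:**
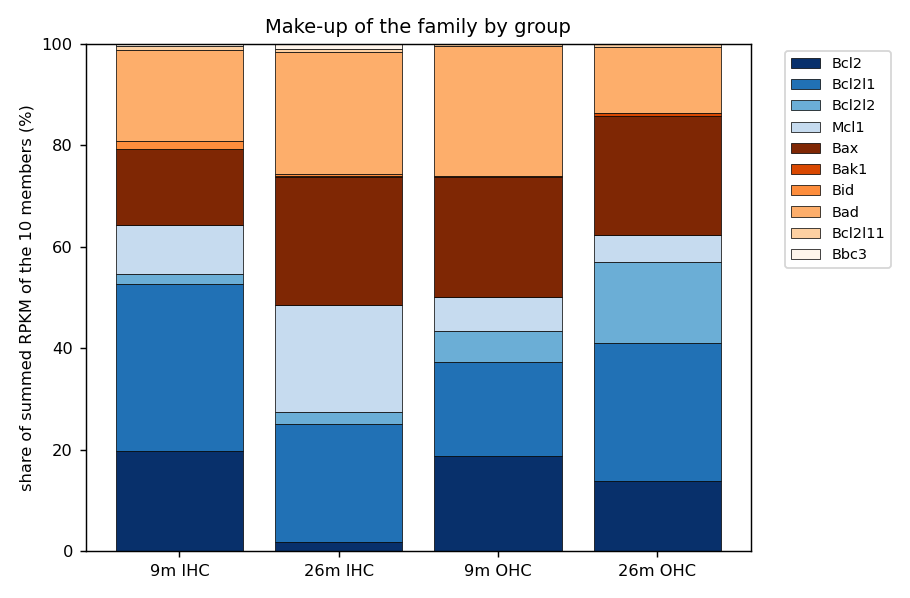
Share of each member in the summed RPKM of the 10 members (y axis, percent, mean of the libraries) in the 4 labelled groups (bars), with blues for protective and oranges for death-promoting members. The part of *Bcl2* shrinks from 19.7% in 9m IHC to 1.69% in 26m IHC, and that of *Bcl2l2* reaches 15.9% in 26m OHC.

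Other genes of the pathway were counted in 4 lists, to be read against the shares of all genes called: 14.1% higher and 18.6% lower in 26m IHC against 9m IHC, 35.6% and 14.0% in 26m OHC against 9m OHC, 17.3% and 48.5% in 9m OHC against 9m IHC, and 29.0% and 34.4% in 26m OHC against 26m IHC. Of the other BCL2 relatives, 1 was higher and 1 lower of 8 tested in 26m IHC against 9m IHC, 5 higher and 1 lower of 9 in 26m OHC against 9m OHC, 1 higher and 5 lower of 9 in 9m OHC against 9m IHC, and 4 higher and 2 lower of 10 in 26m OHC against 26m IHC. Highest by the mean over the 4 groups were the mitophagy receptors *Bnip3l* (94.5, 102, 72.9 and 72.3 RPKM in the 4 groups in order) and *Bnip3* (119, 45.5, 62.9 and 54.0 RPKM). *Bnip3* showed the largest called fall of this list in IHC (-1.38), and *Hrk*, a BH3-only gene of neurons, the largest rise in both age comparisons, 1.007 in IHC and 4.72 in OHC. *Hrk* was at 0.116, 0.336, 0.00420 and 2.64 RPKM, so that its level at 26 months in OHC stood above that of *Bcl2l11*, *Bid* and *Bbc3* there. The neuron marker sum was also higher in 26m OHC than in 9m OHC, as given above, and its part in this difference was not tested. Of their windows *Bnip3* shares 47.1% and *Bnip3l* 18.8% with copies elsewhere, so their reads are uncertain.

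*Bcl2a1b*, a protective relative known from blood cells, gave the largest called rise of its list in OHC against IHC at both ages, and *Bcl2l14* the largest fall (-2.36 at 9 months and -1.69 at 26 months). *Bcl2a1b* was at 0, 0.0719, 5.42 and 11.8 RPKM in the 4 groups in order, and it shares 66.7% of its windows with near-identical copies, so its reads are uncertain. In 9m OHC, where it was at 5.42 RPKM, the macrophage markers summed to 0.158 to 0.424 RPKM with 9 of 12 at 0, and the 10 eosinophil and neutrophil markers to 3.08 to 4.41 RPKM, with *S100a8* at 3.70 RPKM and *Epx*, *Ear1*, *S100a9*, *Elane*, *Mpo*, *Ltf* and *Camp* at 0. In 26m OHC these sums were 1013 to 1045 and 0.618 to 1.35 RPKM, and the part of such cells was not tested. *Bik*, another BH3-only gene, showed the largest called fall with age in OHC (-1.27).

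Of 14 genes of the apoptosome, the caspases and their inhibitors, all tested, 1 was higher and 1 lower in 26m IHC against 9m IHC and 3 were called in 26m OHC against 9m OHC, each higher, beside 32.7% and 49.6% of all genes called. Between the labelled cell types 2 were higher and 4 lower in OHC at 9 months, and 3 higher and 6 lower at 26 months, beside 65.8% and 63.5% of all genes called. *Cycs*, which encodes cytochrome c, was at 52.0, 59.99, 81.1 and 112 RPKM in the 4 groups in order, and *Aifm1*, a mitochondrial flavoprotein that can move to the nucleus in cell death, at 33.7, 47.5, 18.0 and 12.7 RPKM. The largest called changes with age in IHC were *Birc3* (1.16), a gene of the inhibitor of apoptosis family, and *Casp6* (-1.004), an executioner caspase gene. In OHC the largest was *Apaf1* (2.68), the scaffold of the apoptosome. *Apaf1* was at 0.131, 0.215, 0.00552 and 0.578 RPKM. *Birc6* (2.98 and 3.23), a large inhibitor of apoptosis, and *Endog* (-3.03 and -3.18), a mitochondrial nuclease, differed most between OHC and IHC at 9 and 26 months. *Cycs* shares 26.2% and *Endog* 30% of their windows with other genes.

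Of 18 upstream regulators and partners tested, 1 was called in 26m IHC against 9m IHC, *Jun* (-1.58), and 8 in 26m OHC against 9m OHC, each higher, beside 32.7% and 49.6% of all genes called. In OHC against IHC 4 were higher and 6 lower at 9 months, and 9 higher and 3 lower at 26 months. *Bag1*, a chaperone partner of BCL2, was at 116, 96.0, 26.9 and 23.3 RPKM in the 4 groups in order, and *Vdac2*, the channel that brings BAK and BAX to mitochondria, at 35.5, 39.3, 70.6 and 67.8 RPKM. *Pim1*, a kinase that phosphorylates BAD, showed the largest rise between the cell type labels at both ages (6.39 and 6.73), and *Jun* (-3.11) and *Bag1* (-2.04) the largest falls at 9 and 26 months. *Pim1* was at 0.287, 0.217, 32.3 and 33.6 RPKM, a division by the cell type labels as given. The paper instead reports it as upregulated with age in both HC types.

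In the death receptor arm, which acts on this family through *Bid*, 1 was higher and 2 lower of 10 tested in 26m IHC against 9m IHC, and 5 of 8 were called in 26m OHC against 9m OHC, each higher, beside 49.6% of all genes called and 35.6% called higher. The macrophage marker sum was 0.158 to 0.424 RPKM in 9m OHC and 1013 to 1045 RPKM in 26m OHC, and its part in this count was not tested. In 9m OHC against 9m IHC 6 of 9 were called, each lower, and in 26m OHC against 26m IHC 4 were higher and 3 lower of 10. *Casp8*, whose protein cuts BID, was at 6.54, 1.59, 0.847 and 3.65 RPKM in the 4 groups in order, the largest called fall of the list with age in IHC (-1.98). *Tnfrsf1a*, a receptor of tumour necrosis factor, was at 3.93, 4.02, 0.279 and 3.56 RPKM and showed the largest rise with age in OHC (3.27) and the largest fall between labels at 9 months (-3.41). *Ripk1*, at 7.20, 7.002, 3.58 and 2.11 RPKM, and *Cflar*, a caspase-8 inhibitor, at 5.97, 1.92, 4.07 and 5.14 RPKM, had the highest means over the 4 groups together, though not in each group, and *Ripk1* fell most (-1.69) and *Fadd*, an adaptor of the receptors, rose most (2.24) between labels at 26 months. *Fasl*, listed at 0 in all groups but 26m IHC, where it was at 0.111 RPKM, was the gene called higher in IHC.

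**Figure D5:**
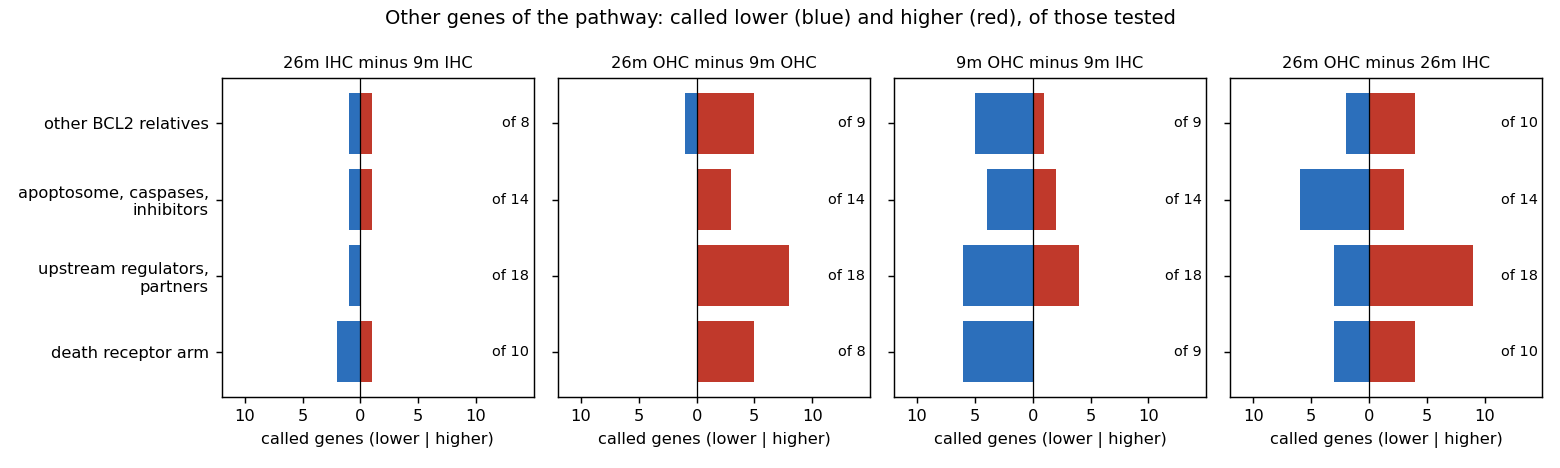
Number of genes called lower (blue, to the left) and higher (red, to the right) in each of the 4 other lists of the pathway (rows) for the 4 comparisons (panels), with the number tested at the right edge. In 26m OHC against 9m OHC 8 of 18 upstream regulators and partners and 5 of 8 death receptor genes were called, each higher.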

How the data were processed

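CLC Genomics Workbench was used by the authors to map paired reads to GRCm38, and they deposited a table of RPKM per gene. The version, the rule of counting and the strand are not given in the sources used here. The mapped reads of each library were worked out from RPKM steps of low genes and exon lengths in GENCODE M21. Reads came out whole, within 0.001 read, for 15700 of 20909 detected genes with a length (75.1%). No column of per-sample values was left out.

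Pairs of repeat libraries were found over genes of at least 1000 reads and averaged. limma 3.58.1 in R 4.3.3 (eBayes with trend) was run on log2(RPKM + 0.1), for genes whose mean reached 0.1 RPKM in a group compared, with Benjamini-Hochberg adjustment over all genes tested. Low-read ratios have Clopper-Pearson intervals. Shared sequence is the share of 75-base windows, taken every 25 bases, that occur in another gene's transcripts on either strand. The tests were tried on simulated data first.

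The members, gene lists and thresholds were chosen with earlier results of these data known. All 10 members are named, and for each pathway list the 2 genes highest by the mean over the 4 groups and, per comparison, the called genes that rose and fell most, of which 1 is not reported here, nor is 1 marker gene. Alternatives covered the pseudocount, filter, scaling, model, replicates and pairing. Same-numbered libraries of different groups deviated together (r of 0.148 to 0.345 in 24 of 24 pairs). Only 7 of 24 correlated best with their own number, and the best match always lay within the same pair of repeat libraries. Averaged replicates of the same number also deviated together (r of 0.433 to 0.592 over 4 comparisons of groups). The groups thus shared the split between the pairs of repeats, while the numbers of single libraries did not pair them. The cause of this shared split was not tested.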

Additional observations from a re-analysis of the deposited data

Results flagged for a closer look

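In 41 groups of 4 libraries, 3 had a library far from the others by Dixon's test at its 95% critical value, and chance gives about 1 such group in 20. That rate is for independent values, while the libraries here come in pairs of repeats, so it is a rough guide only. *Bcl2l2* in 9m OHC was lowest at 5.31 RPKM in library 3, against 5.83 to 5.92 RPKM in the others. *Bax* in 26m OHC was highest at 20.9 RPKM in library 1. *Bid* in 26m OHC was at 0.0282 RPKM (2 reads) in library 3 and at 0 in the others, a pattern that this test flags at any level.

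By the interaction term, 6 members were called, among them *Bid*, whose 0 and 2 reads in the groups labelled OHC left it no room to fall there, so that its value restates its fall in IHC. The differences, OHC minus IHC on the log2 scale, were 3.77 for *Bcl2*, 1.84 for *Bcl2l1*, 1.94 for *Bcl2l2*, 1.50 for *Bak1*, 2.56 for *Bid* and 1.95 for *Bcl2l11*, with limma and Benjamini-Hochberg adjusted p from 2.26e-08 (*Bcl2l1*) to 0.000282 (*Bak1*). Both 26m IHC and 9m OHC are subtracted in this term, so exchanging their labels would leave its values unchanged. These 6 differences otherwise use the labels as given, and the OHC markers went against those of 26m IHC and 9m OHC. In 26m OHC *Slc26a5* was also low, at 1.85 RPKM against 816 RPKM in 26m IHC.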

How the results depend on the processing

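Over 47 results on single members and their alternatives, 676 of 720 values kept direction and call. The replicate block, with the replicate number as the pairing, gave 5150, 7382, 10096, 10197 and 9646 called genes in 26m IHC minus 9m IHC, 26m OHC minus 9m OHC, 9m OHC minus 9m IHC, 26m OHC minus 26m IHC and the interaction, and 4, 3, 5, 6 and 6 members, with no member call changed. Leaving out 1 averaged replicate gave 5094 to 5161, 7341 to 7369, 10022 to 10065, 10092 to 10171 and 9594 to 9664 genes and 4, 3, 5 to 6, 6 and 6 members, the sixth at 9 months being *Bak1*, called without replicate 2 of either group (1.07 and 1.01).

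A pseudocount of 1 RPKM gave 2286, 4197, 6302, 6410 and 5761 genes in that order, and 2 members at 9 months and 3 at 26 months between the labels, since it shrinks low values. A filter at 1 RPKM gave 3096 genes in 26m IHC minus 9m IHC and 3 members called between labels at each age, as *Bak1*, *Bcl2l11*, *Bbc3* and, at 26 months, *Bid* were then not tested. Quantile normalization left 1 member called in 26m OHC minus 9m OHC. Without 26m IHC and 9m OHC, the only comparison left, 26m OHC minus 9m IHC, gave 9831 genes and 6 members.

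Directions turned in 26m OHC minus 9m OHC for *Bak1* (-0.10) and *Bcl2l11* (-0.94) by quantile normalization, and in 9m OHC minus 9m IHC for *Bcl2* (0.29 by median ratio scaling, 0.26 by quantile normalization) and *Mcl1* (0.012). The cause was not tested. The interaction of *Bax*, near 0, was -0.0021 with a pseudocount of 1 RPKM, -0.61 by median ratio scaling, -0.24 by quantile normalization, -0.044 without mitochondrial genes, -0.00072 with 4 libraries as replicates and -0.061 to 0.061 with a replicate left out. The protective to death-promoting ratio was 1.51, 1.199 and 2.46 without *Bcl2l1* and *Bax* in all groups but 26m IHC, 4.32, 1.91, 2.10 and 2.61 against *Bax* and *Bak1* in the 4 groups in order, and 6.58, 3.57, 11.8 and 11.8 with geometric means, which weigh *Bid* and *Bbc3* as much as *Bax*. With a replicate left out it was 1.75 to 1.86, 0.916 to 0.966, 0.979 to 1.02 and 1.62 to 1.70.

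Depth limits *Bak1*, *Bid* and *Bbc3*, with 0 to 8 reads per library in several groups, and n = 2 limits every test.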
